A study of Mus musculus with 7 samples.

Results

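The interleukins and the tumor necrosis factor (TNF) superfamily are the secreted and membrane-bound cytokines, with their receptors, through which marrow cells pass inflammatory and survival signals. Members were taken by symbol: probe sets with a single platform gene symbol made of Il and a digit, or beginning with Tnfsf or Tnfrsf. Il7, Il7r, Tnfsf11, Tnfrsf11a and Tnfrsf11b were left out. Where a gene had several such probe sets, the one with the strongest average signal across the 7 arrays stood for it. This gave 87 of the 12393 genes on the array. They were 38 ligands (32 interleukins, 6 TNF ligands), 47 receptors (30 and 17) and 2 that are neither, the binding protein Il18bp and the enzyme Il4i1.

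The arrays carry total RNA of bone marrow stromal cells sorted from OsxCre-mCherry;OcnCre-Topaz double transgenic mice aged 4 to 6 weeks, on day 6 after tamoxifen. In these animals cells marked through the osterix gene are red (mCherry Osterix, Osx+, 4 arrays) and cells marked through osteocalcin are green (Topaz Osteocalcin, Ocn+, 3 arrays). Both groups therefore share genotype, tamoxifen and age, and by the labels differ in the sorted colour. Cells carrying both colours were not analysed here. The labels do not say whether arrays came from separate or pooled animals, and the p-values refer to spread between arrays that may be technical in part. Of 14 osteolineage markers 9 were measured (Bglap, the osteocalcin gene, was not among them), and their mean log2 signal lay between 12.79 and 13.33 in the Ocn+ and between 12.47 and 13.35 in the Osx+ arrays.

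As background, interleukin 1 alpha and beta (Il1a, Il1b) bind the receptor Il1r1, which signals with the accessory chain Il1rap. The antagonist Il1rn occupies Il1r1 without signalling, and Il1r2 is a decoy. Most other interleukins signal through paired chains coupled to JAK kinases and STAT factors, often with a shared chain such as Il6st, whereas IL-17 family receptors form a structural class of their own. TNF ligands act as trimers on receptors that recruit TRAF adaptors or death domain proteins and lead to NF-kB activation or cell death. In bone marrow these cytokines are known for acting on osteoclast formation and on blood cell production.

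Il1rn, Il17b and Il1a, members of the interleukin 1 and 17 families, stood lowest in Ocn+ relative to Osx+ cells. On the log2 scale, on which all values here are given, Il1rn differed by -2.06 (SE 0.50), Il17b by -1.59 (SE 0.60) and Il1a by -1.56 (SE 0.36), with n = 3 against 4. Il12a (1.23, SE 0.59) and the receptor chain Il27ra (1.04, SE 0.29) stood at the other end. In limma, adjusted over all genes, 0 of the 87 members had an adjusted p under 0.05, where 0% of all genes had one (0 of 12393). At an unadjusted limma p under 0.05 there were 6 members, 3 higher (3.48% of all genes) and 3 lower in Ocn+ cells (1.83% of all genes), against 5.31% of all genes in either direction. The arrays of the groups did not overlap for 6 members, or 6.90%, which equals the share over all genes, 6.90%. The members' count is thus at the background and is no result about the family. It was 10 members without Osx+ replicate 1 (11.5%, against 15.1% of all genes) and 14 without Osx+ replicate 3 (16.1%, against 13.1%).

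As lists, ligands and receptors had medians near that of the whole array. The median difference was -0.07 over the 38 ligands and -0.10 over the 47 receptors, and 0.02 over all genes. Of the ligands 24 had a difference below 0 and 14 above. Of the receptors it was 33 below and 14 above, where 47.3% of all genes lay below 0. At or above the median signal it was 3 of 5 ligands (median -0.69) and 8 of 11 receptors (median -0.12) below 0, against 40.6% of all genes (median 0.05). Without overlap were 4 ligands, all lower in Ocn+ cells (Il1a, Il1rn, Il17b and Tnfsf8, against 2.53% of all genes lower), and 2 receptors, both higher (Il27ra and Il13ra2, against 4.37% higher). The direction of such counts moved with the scaling. With median centring 1 member was apart higher and 6 lower (404 and 503 of all genes, against 541 and 314 as deposited), and with quantile normalization 4 and 3 (515 and 388).

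For 69 of the 87 members the difference was under 0.5 log2 units in size, and for 43 the unadjusted 95% interval of limma lay between -1 and 1. Most members were dim. Signal was under the 25th percentile of all genes for 42 members and under the median for 71. In the absence of detection calls, a dim value cannot be told from background. Il4i1 stood between 3.68 and 3.99 on all arrays, and its difference was -0.09.

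**Figure D1:**
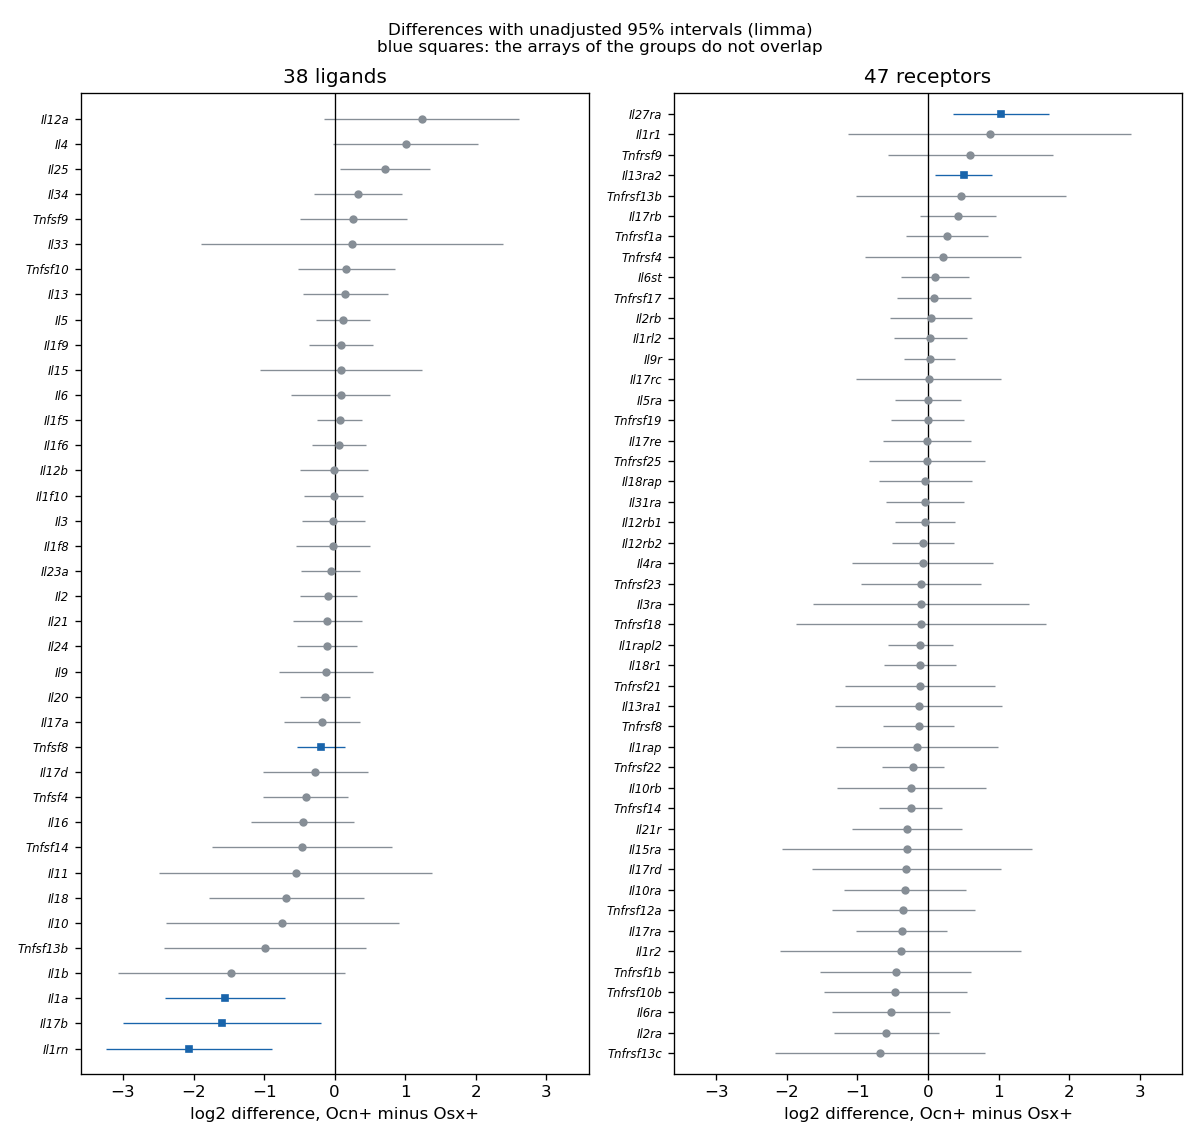
Log2 difference of Ocn+ minus Osx+ arrays (x axis, 3 against 4 arrays) for each of 38 ligands (left) and 47 receptors (right), ordered by difference; bars are unadjusted 95% limma intervals and blue squares mark genes whose arrays do not overlap between groups. Il1rn, Il17b and Il1a lie at the low end of the ligands at -2.06, -1.59 and -1.56, and 40 of 47 receptors lie within 0.5 of 0.

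Part of the variation among arrays did not follow the sorted group. Xist, the RNA of the inactive X chromosome, stood between 12.33 and 12.96 on 4 arrays (Ocn+ replicates 2 and 3, Osx+ replicates 2 and 4) and between 4.87 and 5.79 on the other 3. The Y-linked gene Eif2s3y also read 8.03 to 9.47 on 3 of the 4 high-Xist arrays and 4.03 on Osx+ replicate 4. Both signals thus occurred together on 3 arrays. On the low-Xist arrays Eif2s3y read 9.51 (Ocn+ replicate 1), 10.07 (Osx+ replicate 1) and 10.41 (Osx+ replicate 3). Among other cell types, the 13 macrophage markers had list means of 8.75 to 9.94 in the Ocn+ and 10.1 to 11.1 in the Osx+ arrays, with 11 of 13 below 0. The 15 measured endothelial markers lay at 9.74 to 10.1 against 6.20 to 9.07, the 10 neutrophil markers at 10.9 to 11.1 against 7.24 to 10.5, and the 8 osteoclast markers at 10.8 to 11.1 against 8.51 to 10.4. All members of these 3 lists had a difference above 0. The mast cell, B cell, dendritic cell, megakaryocyte, erythroid and stromal lists overlapped between groups. The T and NK cell list means lay at 5.79 to 6.05 against 5.48 to 5.77, but 7 of its 11 genes were above 0 and 4 below, with a median difference of 0.03. In sorted bulk samples fewer cells of a type and less RNA per cell cannot be told apart.

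The ligands of interleukin 1 and their antagonist had Ocn+ means below the Osx+ means. Their promoters are shown because the 3 genes had the same direction while lying in 2 places: Il1a and Il1b neighbour each other, and Il1rn lies apart from them. The lines give the 250 bases before the RefSeq start site, 5′ to 3′ on the gene's strand, in build GRCm38.p6. Il1rn has 3 entries, of which the outermost are shown. Capitals mark matches to the TATA box (TATAAA), AP-1 (TGANTCA), C/EBP (TTNNGNAA) or NF-kB (GGG, then 5 free bases, then CC), searched on both strands.
Il1a (chr2:129309973-129310222, - strand): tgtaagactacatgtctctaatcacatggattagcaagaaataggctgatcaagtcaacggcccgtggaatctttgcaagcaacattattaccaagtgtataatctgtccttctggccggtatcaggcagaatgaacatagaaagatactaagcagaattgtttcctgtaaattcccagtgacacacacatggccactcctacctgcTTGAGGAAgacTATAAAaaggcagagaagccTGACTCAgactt
Il1b (chr2:129371140-129371389, - strand): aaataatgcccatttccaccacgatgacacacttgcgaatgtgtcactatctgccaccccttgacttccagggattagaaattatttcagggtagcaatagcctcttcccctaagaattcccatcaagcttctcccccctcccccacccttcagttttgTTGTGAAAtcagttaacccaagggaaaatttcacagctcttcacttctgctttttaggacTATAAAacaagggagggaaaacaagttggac
Il1rn, upstream start (chr2:24336610-24336859, + strand): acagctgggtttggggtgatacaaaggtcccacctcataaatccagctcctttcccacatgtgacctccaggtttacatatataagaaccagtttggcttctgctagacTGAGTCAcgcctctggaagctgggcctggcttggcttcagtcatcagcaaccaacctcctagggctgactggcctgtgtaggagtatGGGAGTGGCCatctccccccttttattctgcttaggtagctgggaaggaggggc
Il1rn, downstream start (chr2:24345121-24345370, + strand): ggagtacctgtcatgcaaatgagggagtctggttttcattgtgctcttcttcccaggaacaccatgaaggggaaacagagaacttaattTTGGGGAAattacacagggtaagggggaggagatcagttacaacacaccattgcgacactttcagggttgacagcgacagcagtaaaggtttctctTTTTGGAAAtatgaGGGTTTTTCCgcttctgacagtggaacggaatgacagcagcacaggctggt

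A TATA box began 32 bases before the start of Il1a and 31 bases before that of Il1b, and neither Il1rn window shown held these letters. TATAAA occurred in 12.4% of the 32851 windows of all genes. A C/EBP match (36.8% of windows) lay in Il1a, 43 bases before the start, in Il1b, 91 before, and in the downstream Il1rn window, where 2 of its 3 matches overlapped by 7 bases. The AP-1 letters (6.75% of windows) occurred 12 bases before the Il1a start and 141 before the upstream Il1rn start. Both Il1rn windows held an NF-kB match, which 45.8% of windows held. These matches are descriptions of letters, not of bound sites.

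Il1rn, the receptor antagonist, read 9.06, 7.95 and 9.15 on Ocn+ replicates 1 to 3 and 11.36, 11.52, 10.48 and 9.77 on Osx+ replicates 1 to 4. All Ocn+ arrays lay below all Osx+ arrays, with Osx+ replicate 4 nearest. The means were 8.72 ± 0.67 (SD, n = 3) and 10.78 ± 0.81 (SD, n = 4), a 4.18-fold difference in linear signal. The 95% interval of the difference ran from -3.24 to -0.88, and it did not pass over all genes (limma adjusted p = 0.689). The other Il1rn probe sets gave -2.45, again without overlap, and -1.20, with overlap. Within the high-Xist arrays the difference was -2.09 and within the low-Xist arrays -1.87, the latter with a single Ocn+ array.

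Il1a, the cell-associated agonist, read 5.64, 4.97 and 5.26 on the Ocn+ arrays and 6.91, 6.99, 7.50 and 5.99 on the Osx+ arrays. The groups did not overlap, and Osx+ replicate 4 was again the nearest. The difference of -1.56 (SE 0.36, 95% interval -2.41 to -0.71) had a limma adjusted p of 0.689. It was -1.38 within the high-Xist and -1.57 within the low-Xist arrays, the latter with a single Ocn+ array. The Ocn+ values and that of Osx+ replicate 4 lie under the 25th percentile of signal over all genes, 6.03.

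Il1b, the secreted agonist, read 11.51, 10.04 and 10.08 on the Ocn+ arrays and 13.16, 12.87, 10.86 and 11.13 on the Osx+ arrays. Here the groups overlapped, since Ocn+ replicate 1 lay above Osx+ replicates 3 and 4. The difference was -1.46 (SE 0.68, limma adjusted p = 0.999). For all 3 genes the macrophage markers had the same direction (11 of 13 below 0, list means apart between the groups). So did Nlrp3, the sensor of the complex that matures interleukin 1 beta, at -1.50 (SE 0.59, limma adjusted p = 0.935). Casp1 and Pycard, of the same list of IL-1 and Toll type signalling, differed by only -0.12 (SE 0.55) and -0.02 (SE 0.36). The part of macrophage RNA in the Il1rn, Il1a and Il1b differences was not tested.

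The receptors of interleukin 1 varied with the Xist signal of the arrays. Il1r1, the signalling receptor, read 9.80, 11.11 and 10.78 on the Ocn+ arrays and 7.68, 11.03, 9.08 and 10.96 on the Osx+ arrays. Its group difference was 0.87 (SE 0.85, limma adjusted p = 0.999). The difference was -0.05 within the high-Xist and 1.42 within the low-Xist arrays, the latter with a single Ocn+ array. Without Osx+ replicate 1 it was 0.21. The accessory chain Il1rap read 6.90, 8.11 and 8.28 against 7.25, 8.35, 7.34 and 8.72, and the decoy Il1r2 8.28, 6.90 and 7.20 against 9.41, 7.15, 8.38 and 6.45. In each of the 3 genes the 4 high-Xist arrays lay wholly to one side of the other 3. The share of all genes apart in this way was not counted. Many genes of the array differed with the Xist signal, 28.2% at a limma adjusted p under 0.05 when fitted beside the sorted group. Il18, a further member of the family, differed by -0.69 (SE 0.47) and its receptor chains Il18r1 and Il18rap by -0.11 and -0.04. The dim genes of the IL-36 and IL-38 branch, Il1f5, Il1f6, Il1f8, Il1f9 and Il1f10, with Il1rl2, had differences from -0.02 to 0.09.

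**Figure D2:**
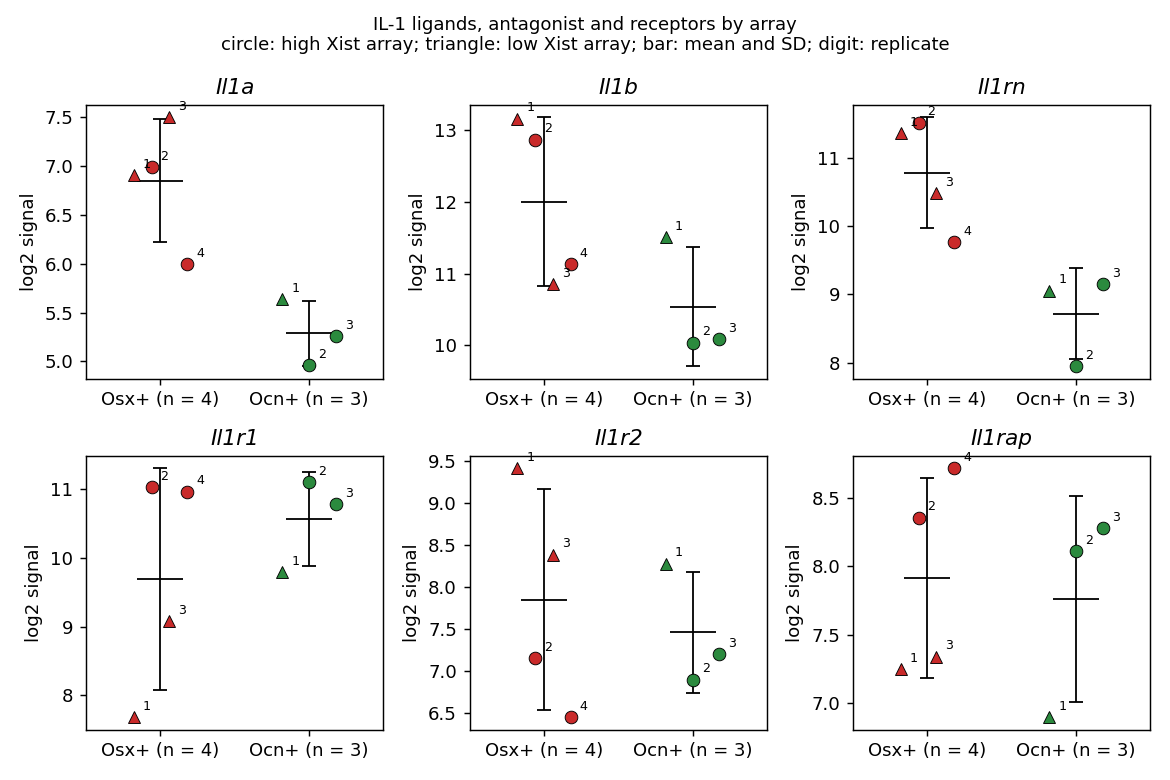
Log2 signal (y axis) of Il1a, Il1b, Il1rn, Il1r1, Il1r2 and Il1rap on each array by group, with the mean and SD as bars, circles for high-Xist and triangles for low-Xist arrays, and the replicate number beside each point. The groups are apart for Il1a and Il1rn, while for Il1r1, Il1r2 and Il1rap circles and triangles are apart within both groups.

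Among the other interleukins Il17b, a ligand of the receptor Il17rb, read 6.00, 5.85 and 5.15 on the Ocn+ arrays and 7.62, 8.68, 6.38 and 6.35 on the Osx+ arrays. The groups were apart by a small gap, between Ocn+ replicate 1 and Osx+ replicate 4. The difference of -1.59 (SE 0.60) had a limma adjusted p of 0.913. Il25, another ligand of Il17rb, read 5.53, 5.35 and 4.88 against 4.39, 4.05, 4.83 and 4.89, a difference of 0.71 (SE 0.27, limma adjusted p = 0.928). The opposite signs of these ligands are both on dim probe sets, and the groups overlapped for Il25. Il17rb itself differed by 0.43 (SE 0.23) and its partner chain Il17ra by -0.37 (SE 0.28).

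Il12a, the smaller subunit of interleukin 12, read 8.80, 8.52 and 8.11 on the Ocn+ arrays and 6.76, 5.96, 8.55 and 7.71 on the Osx+ arrays. Osx+ replicate 3 lay within the Ocn+ range, and the difference of 1.23 (SE 0.59) had a limma adjusted p of 0.999. Il12b, the other subunit of interleukin 12, differed by -0.01 and the receptor chains Il12rb1 and Il12rb2 by -0.05 and -0.07. Il4, a cytokine of T helper cells and basophils, read 6.18, 5.26 and 4.21 against 4.36, 4.49, 3.93 and 4.04. Its difference of 1.01 (SE 0.44, limma adjusted p = 0.956) rested largely on Ocn+ replicate 1, and was 0.53 without it. The neighbouring genes Il13 and Il5 differed by 0.15 and 0.12.

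Il6, a cytokine known for acting on osteoclast formation, was measured well above the median signal on all arrays. It read 12.24, 11.69 and 12.04 on the Ocn+ arrays and 11.56, 11.60, 12.62 and 11.83 on the Osx+ arrays. The difference was 0.08, with a 95% interval from -0.62 to 0.79. The shared receptor chain Il6st read 12.49, 12.37 and 12.44 against 11.92, 12.33, 12.70 and 12.39, a difference of 0.10 with an interval from -0.39 to 0.58. Both intervals, each for 1 probe set, leave out a change of 1 log2 unit. The other Il6st probe sets, of lower signal, gave 0.54, without overlap, and 0.14, with overlap. Il6ra, the chain that binds interleukin 6 itself, differed by -0.53 (SE 0.35). Il11, which also uses Il6st, spread widely, from 6.54 to 8.76 in Ocn+ and from 7.12 to 10.20 in Osx+ arrays.

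For the other ligands described here the arrays of the groups overlapped. Il34, a ligand of the M-CSF receptor, differed by 0.33 (SE 0.26), Il16, a chemoattractant of CD4+ cells, by -0.45 (SE 0.31), and Il10, an anti-inflammatory cytokine, by -0.74 (SE 0.70). Il33 ranged from 5.68 to 7.98 in Ocn+ and from 5.03 to 8.78 in Osx+ arrays, so no direction can be read from its difference of 0.24 (SE 0.91). Il2, Il3, Il9, Il17a, Il20, Il21, Il23a and Il24, cytokines mostly of activated lymphocytes or myeloid cells, had differences from -0.18 to -0.02, all on dim probe sets.

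Il27ra, the receptor chain that binds interleukin 27 together with Il6st, was the receptor of smallest p. It read 6.59, 7.14 and 6.79 on the Ocn+ arrays and 5.18, 5.99, 6.30 and 5.74 on the Osx+ arrays. The groups did not overlap, with Osx+ replicate 3 nearest. The means were 6.84 ± 0.28 (SD, n = 3) and 5.80 ± 0.47 (SD, n = 4), the difference 1.04 (95% interval 0.36 to 1.72), and the limma adjusted p 0.731. With arrays weighted by their fit it was 1.20 and passed at a limma adjusted p of 0.0491, the sole member called in any alternative, where 0.783% of all genes passed. Over the alternatives its adjusted p ranged from 0.0491 to 1. The endothelial, neutrophil and osteoclast markers had the same direction as Il27ra and list means apart between the groups. List means of the T and NK cell markers were also higher and apart, with 7 genes above 0 and 4 below. The part of these cell types in the Il27ra difference was not tested. Ebi3, a subunit of interleukin 27, differed by -0.82 (SE 0.57).

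Il13ra2, a receptor of interleukin 13 regarded mainly as a decoy, read 5.43, 5.87 and 5.52 on the Ocn+ arrays and 5.02, 5.13, 4.98 and 5.27 on the Osx+ arrays. The groups were apart, but the probe set is dim, with values under the 25th percentile of signal on all arrays. Its difference was 0.50 (SE 0.17, 95% interval 0.10 to 0.91, limma adjusted p = 0.888). The signalling chains Il13ra1 and Il4ra differed by -0.13 and -0.07. Il2ra, the high-affinity chain for interleukin 2, read 4.22, 4.18 and 4.13 against 5.55, 4.52, 4.18 and 4.83, a difference of -0.59 (SE 0.32) that overlapped through Osx+ replicate 3.

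**Figure D3:**
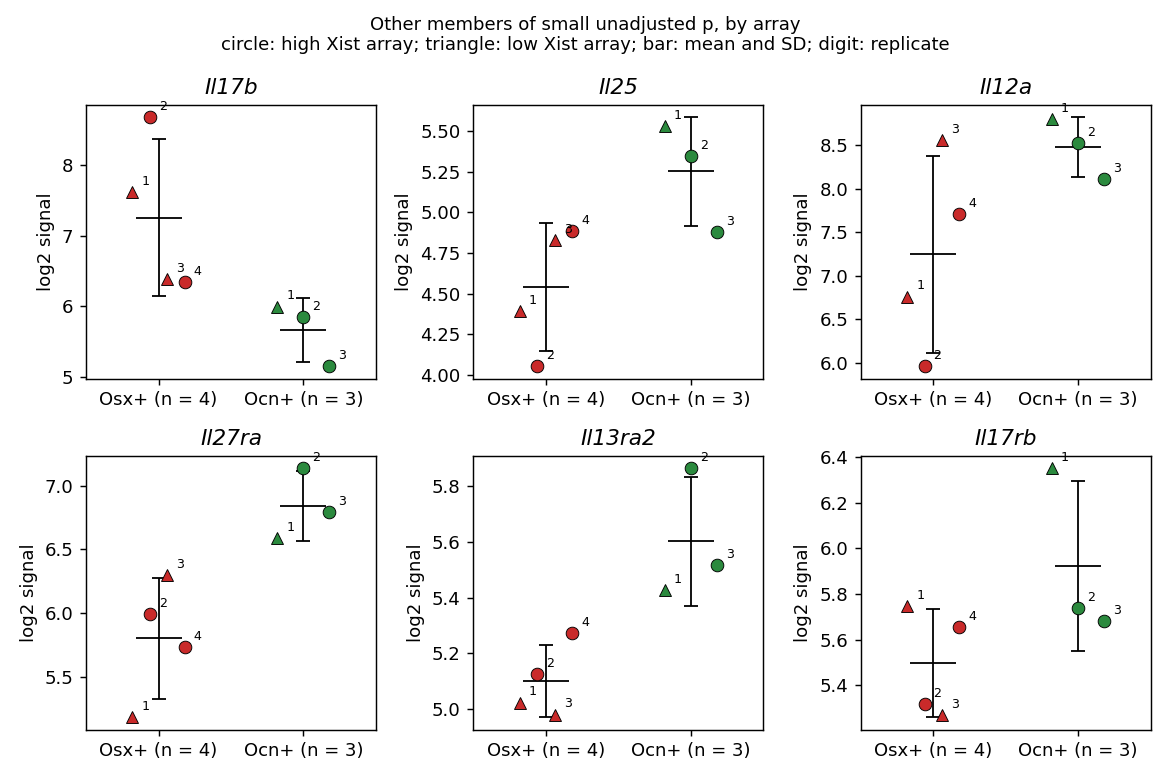
Log2 signal (y axis) of Il17b, Il25, Il12a, Il27ra, Il13ra2 and Il17rb on each array by group, with mean and SD as bars, circles for high-Xist and triangles for low-Xist arrays, and the replicate number beside each point. The groups are apart for Il17b, Il27ra and Il13ra2 and overlap for Il25, Il12a and Il17rb.

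Among the TNF genes no receptor had groups that did not overlap, and the 17 receptors ranged from -0.68 to 0.60. Of the 6 ligands Tnfsf8, the ligand of CD30, was apart with a difference of only -0.19 on a dim probe set (4.71 to 4.87 against 4.91 to 5.14). The most negative was Tnfsf13b, the B cell survival factor BAFF. It read 7.55, 7.24 and 7.73 on the Ocn+ arrays and 8.83, 9.64, 6.84 and 8.67 on the Osx+ arrays. Osx+ replicate 3 lay below the Ocn+ arrays and the other Osx+ arrays above them, and the difference was -0.99 (SE 0.61, limma adjusted p = 0.999).

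The receptors of BAFF and its relative APRIL had differences of both signs. Tnfrsf13c, the BAFF receptor, differed by -0.68 (SE 0.63), Tnfrsf13b (TACI) by 0.47 (SE 0.63) and Tnfrsf17 (BCMA) by 0.09 (SE 0.22). Single arrays moved these values: Tnfrsf13c was -0.16 without Osx+ replicate 1, and Tnfrsf13b was 0.086 without Osx+ replicate 3. Tnfsf9, the ligand of 4-1BB, read 11.69, 11.15 and 10.47 against 11.26, 10.77, 10.85 and 10.48, a difference of 0.26. Its receptor Tnfrsf9 read 7.57, 7.36 and 7.40 against 7.25, 6.11, 8.02 and 6.00, a difference of 0.60 (SE 0.50). The Ocn+ values of Tnfrsf9 lay close together inside the wide Osx+ range. Tnfsf14 and its receptor Tnfrsf14 differed by -0.46 and -0.25, and Tnfsf4 and Tnfrsf4 by -0.41 and 0.21. Tnfsf10 (TRAIL) and Tnfrsf10b differed by 0.17 and -0.46. Tnfsf14 read 7.47 on Osx+ replicate 1 and 5.34 to 5.48 on the other Osx+ arrays. With an array left out its difference ran from -0.66 to 0.049, and that of Tnfrsf10b from -0.72 to -0.086. The other Tnfrsf10b probe set gave 0.079.

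The arrays of the groups overlapped for each TNF receptor of strong signal. Tnfrsf19 (TROY) read 12.10, 12.53 and 12.75 on the Ocn+ arrays and 12.28, 12.36, 12.41 and 12.80 on the Osx+ arrays, a difference of -0.01 (95% interval -0.52 to 0.51). Tnfrsf1a, the main receptor of TNF, read 12.20, 11.87 and 11.72 against 11.77, 11.28, 12.14 and 11.47, a difference of 0.26 (interval -0.32 to 0.84). Tnfrsf1b, the other TNF receptor, lay between 9.70 and 9.95 in the Ocn+ arrays and between 9.25 and 11.08 in the Osx+ arrays. Tnfrsf12a, the receptor of TWEAK, differed by -0.35 (interval -1.37 to 0.67). For Tnfrsf19 and Tnfrsf1a the intervals leave out a difference of 1 log2 unit, and for Tnfrsf12a the interval does not. The decoy receptor Tnfrsf22 differed by -0.21 (SE 0.19) and its neighbour Tnfrsf23 by -0.10.

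The class of Xist signal was defined from these data, and the members below were picked out after their values were seen. Fitted in limma beside the sorted group, it passed at an adjusted p under 0.05 for 28.2% of all genes (3490 of 12393). Of the 47 receptors 14 passed (29.8%, near the background), 3 higher and 11 lower on the high-Xist arrays (11.2% and 16.9% of all genes), and of the 38 ligands 0 passed. By signal, 5 of the 11 receptors and 0 of the 5 ligands at or above the median passed, against 36.4% of all genes there, and 9 of 36 receptors and 0 of 33 ligands below it, against 19.9%. By family, 12 of 30 interleukin receptors and 2 of 17 TNF receptors passed. The differences between ligands and receptors and between families were not tested.

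Receptor chains that work together did not always go the same way. Il1r1 stood 2.03 higher on the high-Xist arrays (SE 0.44, limma adjusted p = 0.0200) and Il1rap 1.26 higher (SE 0.14), whereas the decoy Il1r2 differed by -1.75 (SE 0.34). Il13ra1 stood 1.14 higher (SE 0.29) and its signalling partner Il4ra differed by -1.08 (SE 0.13). The rise of Il13ra1 depended on the probe set. On another one the high-Xist arrays also lay above the rest (7.89 to 8.77 against 6.69 to 7.02). On a further one they read 7.18 to 7.43, inside the range of the low-Xist arrays, 6.06 to 9.13. Il3ra, the interleukin 3 chain, read 9.95, 8.19 and 8.43 on the Ocn+ arrays and 10.12, 7.93, 9.52 and 8.27 on the Osx+ arrays, a class difference of -1.69 (SE 0.19). The chains of the IL-17 receptors were all on the lower side where they passed: Il17ra at -0.65, Il17rc at -1.11, Il17rd at -1.28 and Il17re at -0.55. Il15ra (-1.65), Il10rb (-0.98), Tnfrsf4 (-1.14) and Tnfrsf1a (-0.51) complete the list. In it Il17rd, Il17re and Tnfrsf4 were dim, with mean signal under the 25th percentile of all genes. The other Il17re probe set overlapped between the classes. None of these 14 genes had a group difference over 0.87 in size. What the classes stand for was not tested.

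**Figure D4:**
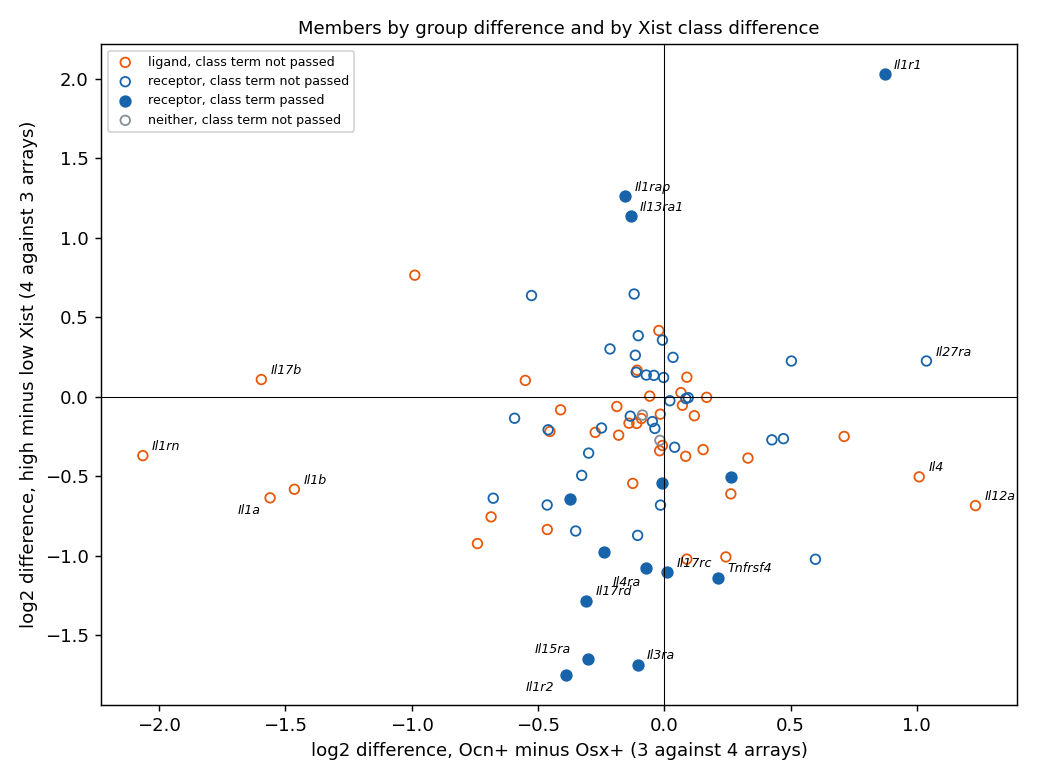
Each point is a member, by its Ocn+ minus Osx+ log2 difference (x axis) and its high-Xist minus low-Xist log2 difference from a fit with both terms (y axis); filled points passed for the class term at a limma adjusted p under 0.05. The 14 filled points are receptors, led by Il1r1 at 2.03 and Il1r2 at -1.75, and the ligands Il1rn, Il17b and Il1a lie at the left without a class call.

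Members that neighbour each other in the genome were compared next. With at most 1 protein-coding gene between them, 37 members fell into 14 runs. Il1a and Il1b, at -1.56 and -1.46, were the run in which both members differed by more than 1 log2 unit. Il1rn at -2.06 ended a run with Il1f10, Il1f5, Il1f6, Il1f9 and Il1f8, which were near 0. In the run of Il1r2, Il1r1, Il1rl2, Il18r1 and Il18rap the differences were -0.39, 0.87, 0.03, -0.11 and -0.04. Of 25 members with several probe sets, 16 had the same sign of difference in all of them and 9 did not.

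Genes of the same pathways under other symbols did not pass the test either, with 0 called in each list. The median difference was 0.01 over the 7 other TNF ligands and -0.06 over the 6 measured other TNF receptors, where Tnf itself differed by -0.53 (SE 0.63) and Fas by -0.17 (SE 0.31). Over 23 TNF receptor adaptors and NF-kB genes it was -0.02, with 10 above 0 and 13 below. Tradd, an adaptor of the TNF receptor, was the 1 gene of these 23 whose arrays did not overlap (0.22, SE 0.15). Over all genes 6.90% did not overlap, so this is no result about the list.

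The signalling lists held a few genes of small unadjusted p. Over all genes 5.31% had an unadjusted limma p under 0.05 and 6.90% had groups that did not overlap. The genes below are described singly and are no result about their lists. Among 11 genes of IL-1 and Toll type signalling (median -0.02), Sigirr, an inhibitory receptor of the pathway, read 7.93, 7.29 and 7.86 on the Ocn+ arrays and 6.71, 5.87, 7.03 and 6.13 on the Osx+ arrays. The groups did not overlap, and the difference was 1.26 (SE 0.32, limma adjusted p = 0.729). Among 22 JAK-STAT and SOCS genes (median 0.15, 15 above 0), Stat5b read 10.39, 10.36 and 10.31 against 9.80, 9.91, 9.69 and 9.72. That difference of 0.57 (SE 0.14) was without overlap and had a limma adjusted p of 0.689. Over 15 genes of the gp130 and related cytokines the median was 0.31, with 12 above 0. Ctf1, cardiotrophin, had the smallest p of that list, at a difference of 0.56 (SE 0.22, limma adjusted p = 0.935).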

How the data were processed

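Per the labels' protocols, Trizol RNA was converted to cDNA, amplified by NuGEN Ovation V2 and hybridised with a biotin label. The authors deposited log2 expression values, 1 per probe set and array. The submitters' processing notes name RMA, a method that quantile-normalizes arrays and so hides any change in total RNA; its software is not given in the sources used here. Array medians lay between 8.25 and 8.35. The number of arrays, 3 and 4, limits the precision. Of 22690 probe sets, 20380 had 1 symbol and were used; 691 had several, 1555 none, and 64 were controls. Entrez identifiers gave 20351 a current symbol.

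Groups came from sample titles. Ocn+ minus Osx+ was fitted on all 12393 genes in limma 3.58.1 under R 4.3.3 (lmFit, eBayes, no block), 2-sided, with Benjamini-Hochberg adjustment and a threshold of 0.05. The fit was also run on simulated data with independent noise for each gene. Those data held no array effect shared by genes, so they do not show how the fit behaves on these arrays. Members and gene lists were chosen with earlier results of these data known. The rule for named genes took, per role and direction, the 8 of smallest p, per role the 5 brightest, every member without overlap, and their binding partners; any other member was named after its values were seen. Arrays were also divided by Xist signal at a log2 value of 8. Promoters were matched by symbol for 69 members, Il27ra not among them. Alternatives were a replicate block, each array left out, filters at the 25th percentile and the median, median centring, quantile normalization, another prior, array weights, other probe set choices, the Xist class and a threshold of 0.1.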

Additional observations from a re-analysis of the deposited data

How the results depend on the processing

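The count of members called was 0 in every alternative apart from array weights, where it was 1 (Il27ra), with 97 genes called over all. The lowest weight was 0.24 (Osx+ replicate 1) and the highest 6.02 (Ocn+ replicate 2), and the receptor median became 0.02. Leaving out an array gave 0 to 3 genes over all (3 without Osx+ replicate 2 and 3 without Osx+ replicate 3), 0 members, and 7 to 14 members whose groups did not overlap (8.05% to 16.1%, where 9.46% to 15.1% of all genes did not overlap). The ligand median then ran from -0.12 to -0.00074 and the receptor median from -0.13 to -0.0030. The ligand median was -0.45 with genes under the 25th percentile left out and -0.69 with those under the median left out, which leaves 5 ligands. Members without overlap were then 4 of 45 (8.89%, against 7.48% of all genes kept) and 1 of 16 (6.25%, against 7.60%).

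The replicate number as a block gave 0 members called, a ligand median of -0.12 and a receptor median of -0.10. Deviations of same-numbered arrays correlated at 0.63, 0.45 and -0.30, and Ocn+ replicate 2 correlated best with Osx+ replicate 4 (0.50). Correlations between the groups were positive for arrays of the same Xist class and negative for arrays of different class. They therefore cannot show whether same-numbered arrays were paired, which is not known here. With the block the Tnfrsf19 difference was 0.11, and it was 0.070 with the mean of all probe sets. With array weights the differences of Il13, Il6, Tnfrsf10b and Tnfrsf1b turned to -0.019, -0.026, 0.038 and 0.0025. Leaving out an array turned the sign of Il13 (-0.10 to 0.36), Il6 (-0.040 to 0.32), Il6st (-0.042 to 0.22), Tnfrsf12a (-0.71 to 0.13), Tnfrsf19 (-0.15 to 0.17), Tnfsf10 (-0.015 to 0.42) and Tnfsf9 (-0.031 to 0.58). The other 27 of 36 genes named by rule kept their sign in all these alternatives, though not their size. With an array left out, Tnfrsf13c ran from -1.01 to -0.16, Tnfrsf13b from 0.086 to 0.96 and Il1r1 from 0.21 to 1.32. Comparisons within a Xist class were not among the alternatives counted. There Il1r1 turned to -0.05 (high-Xist arrays) and Tnfrsf9 to -0.065 (low-Xist arrays, with a single Ocn+ array). Of the other 51 members, 42 changed sign in at least 1 alternative, and 0 were called. Medians of dim probe sets say little, since signal over background is not known here.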
